A study of Saccharomyces cerevisiae with 16 samples.

Results

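The 48 genes described here build the cell wall of budding yeast or belong to its cell integrity pathway. They were listed by their known roles, although earlier results of these data were known when the list was drawn up, and make up 48 of the 6174 features of the arrays. Of these genes, 36 are structural: enzymes that make glucan and chitin, enzymes that remodel the wall, wall mannoproteins and 2 plasma membrane proteins that belong with them. The other 12 are signalling genes: wall sensors, the Pkc1 to Slt2 kinase cascade and the regulators Rlm1 and Smi1. Saccharomyces cerevisiae W303-1A, the wild type, and MCY5278, in which MSN2 is replaced by kanMX4 and MSN4 by hphMX4, were given 20 mM KOH, which makes the medium alkaline, or 20 mM KCl. Both strains grew exponentially in YPD rich medium before the addition, and cells were harvested after 10 or 30 min. Each of 16 arrays set KOH RNA against KCl RNA of the same strain and time, with 4 arrays for each combination of strain and time. The series concerns the part of protein kinase A in the response to alkali. Msn2 and Msn4 are stress transcription factors that this kinase holds back, so the mutant shows which changes occur without them.

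The yeast wall is a network of glucan fibres, closed on the outside by mannoproteins and strengthened by chitin, mostly at the bud neck and septum. When the wall is stretched or damaged, the sensors Wsc1 (SLG1), Wsc2, Wsc3 and Mid2 activate the GTPase Rho1 and through it the kinase Pkc1. Pkc1 starts a cascade of Bck1, the redundant kinases Mkk1 and Mkk2, and the MAP kinase Slt2. Slt2 activates the transcription factor Rlm1, which raises transcription of wall genes and of SLT2 itself. Several wall genes, GSC2 among them, are also known targets of the calcium-dependent phosphatase calcineurin and its transcription factor Crz1.

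Ratios are given as log2 of KOH over KCl, with each array centred on its median, so a value of 0 means the ratio of the middle feature. The base and the direction are likely rather than stated by the labels. Values after ± are standard errors of the limma fit over all 16 arrays, and the threshold was an adjusted p below 0.05 (Benjamini-Hochberg, over all features tested). A feature was tested where at least 3 arrays of a group held a value, in both dyes. The text of the series names 2 biological replicates per condition and a dye swap, but not which arrays share an extract, so the p-values treat 4 arrays as units and are too small. In every group arrays 1 and 2, and arrays 3 and 4, are of opposite dye and deviated from their group more alike than the other opposite-dye pairing did. A second fit averaged each such pair into 1 replicate, and it is called the averaged fit below. This fit was chosen after the data were seen. MSN2 had values on 8 of 8 mutant arrays and MSN4 on 5 of 8, although both are deleted there, and what those probes measured is not known.

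More wall genes could be tested at 30 than at 10 min, as was so for all features. Of all features 2670 in wild type and 3042 in the mutant could be tested at 10 min, and 4288 and 4234 at 30 min. An array held values for 32 to 45 of the 48 genes, and 25 of them were measured on every one of the 16 arrays. In all 4 groups 35 genes could be tested, and 9 could be tested in 1 to 3 of them. SKT5 (YBL061C), which activates chitin synthase III, the putative glucanase gene SCW11 (YGL028C) and the kinase gene BCK1 (YJL095W) had no value on any array, and PIR1 (YKL164C) had a value of -0.47 on 1 array. These 4 were not tested. Between arrays of a group the correlation over the wall genes ran from 0.804 to 0.977, against 0.542 to 0.865 over all features. A few wall genes with large ratios raise such a correlation, so these ranges do not compare the precision of the measurements. The probes of related genes, such as FKS1 and GSC2, the PIR genes or MKK1 and MKK2, may share signal.

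Wall genes moved in both directions in each group, with rises larger and more frequent than falls. In wild type at 10 min 13 of 36 tested genes rose and 4 fell, beside 21.1% and 20% of all 2670 features tested. In the mutant at 10 min 13 of 39 rose and 4 fell, beside 17.9% and 17.1% of 3042 features. In wild type at 30 min 16 of 41 rose and 8 fell, where 18.4% of 4288 features rose and 18.4% fell. In the mutant at 30 min 24 of 42 rose and 4 fell, beside 21.5% and 18.8% of 4234 features. The median ratio of the tested genes was -0.02, -0.00, 0.11 and 0.48 in these groups in the same order, beside -0.04, 0.01, 0.02 and 0.02 over all features tested. At 10 min the middle gene of the list thus stood near 0 while a small number of members rose steeply. The averaged fit called fewer genes: at 10 min 11 higher and 2 lower for wild type against 7 and 1 for the mutant, and at 30 min 13 and 2 against 14 and 1. It also called fewer of all features, in both directions together: 598 and 475 at 10 min and 682 and 661 at 30 min, wild type first. The fit over single arrays had called 563 higher and 534 lower of all features in wild type at 10 min, and 543 and 521 in the mutant. At 30 min it had called 788 and 787 in wild type and 912 and 795 in the mutant. Leaving out array 4 of the mutant at 10 min took the 17 calls of that group to 10. FKS1, GAS1, SCW10 and HSP150 then fell short of the threshold. KRE6, YPS3 and PRM5 had no value left in the dye of that array and were not tested.

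In each of the 4 groups 10 genes rose: GSC2, CHS1, YPS1, YPS3, HSP150, SED1, PRM5, PUN1, SLT2 and RLM1. They include a glucan synthase subunit, a chitin synthase, both proteases of the list, mannoproteins, both membrane proteins, the MAP kinase and its transcription factor. In the averaged fit GSC2, CHS1, YPS1, YPS3, PRM5 and PUN1 kept their call in all 4 groups. There HSP150, SED1, SLT2 and RLM1 each lost at least 1 call. No gene fell in all 4. At least 1 group gave a call for 34 genes, and 10 tested genes passed in none. How many of all features passed in all 4 groups, or in at least 1, was not counted. FKS1, EXG1 and DSE2 rose in 1 group and fell in another.

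**Figure D1:**
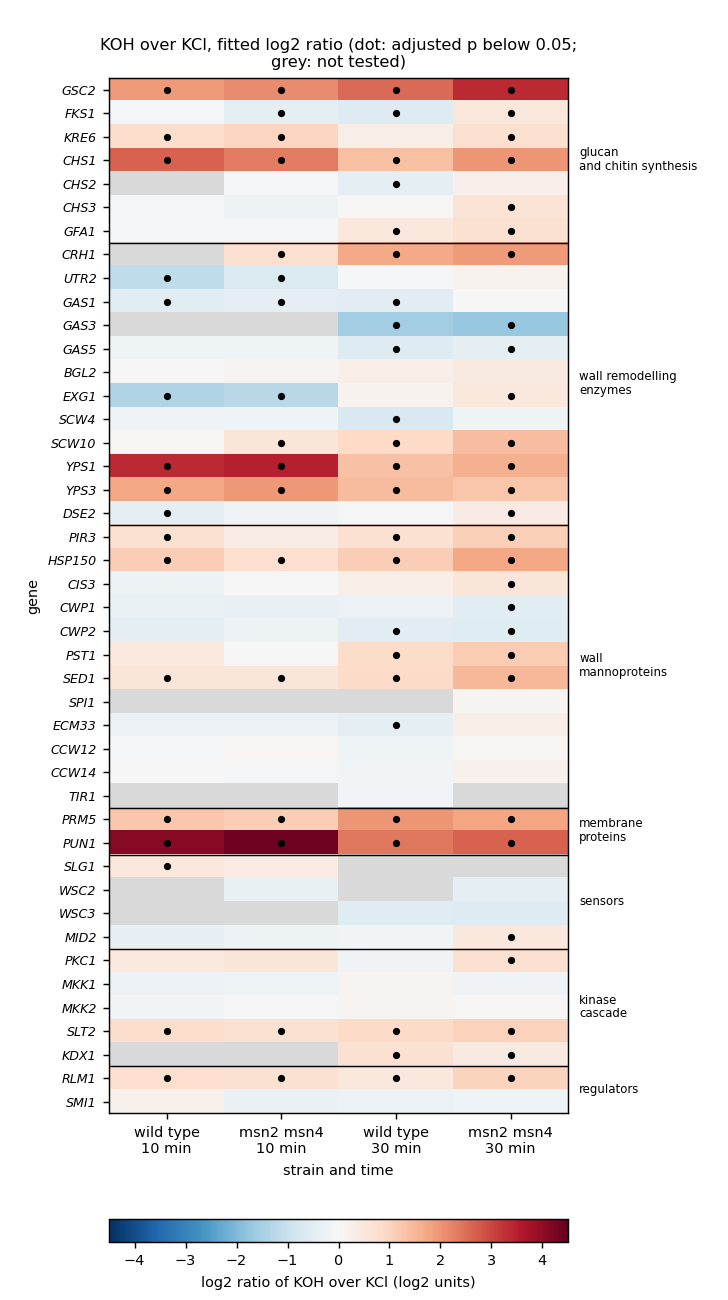
Fitted log2 ratio of KOH over KCl (colour, log2 units) for the 44 genes tested in at least 1 group, in rows by role, and the 4 groups in columns. A black dot marks an adjusted p below 0.05 and grey marks a gene not tested there; 10 genes carry a red field with a dot in every column, and no gene carries a blue one in every column.

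Structural and signalling genes both included rises in every group, and the largest ratios were those of structural genes. Among structural genes, 10 rose and 4 fell of 28 tested in wild type at 10 min (all features 21.1% and 20%), and 11 rose and 4 fell of 30 in the mutant (17.9% and 17.1%). At 30 min 13 rose and 8 fell of 32 in wild type (18.4% and 18.4%), and 19 rose and 4 fell of 32 in the mutant (21.5% and 18.8%). The falls lay above the share over all features in wild type at 30 min and below it in the other groups. Among signalling genes, 3 of 8 and 2 of 9 rose at 10 min in wild type and mutant, and 3 of 9 and 5 of 10 at 30 min, beside the same shares. None of these 8 to 10 tested genes fell in any group. The structural median was -0.04 and 0.00 at 10 min and 0.21 and 0.52 at 30 min in wild type and mutant. These medians cover the genes tested in each group, which differ between the times. Over structural genes tested at both times, the median of 30 min minus 10 min was 0.004 in wild type and 0.518 in the mutant. The signalling median was 0.31, -0.01, 0.11 and 0.24 in the order of wild type and mutant at 10 min, then at 30 min. The largest signalling value was 1.05 ± 0.15 for SLT2 in the mutant at 30 min, beside 4.39 ± 0.25 for the structural gene PUN1 in the mutant at 10 min. The difference between the 2 classes was not tested.

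**Figure D2:**
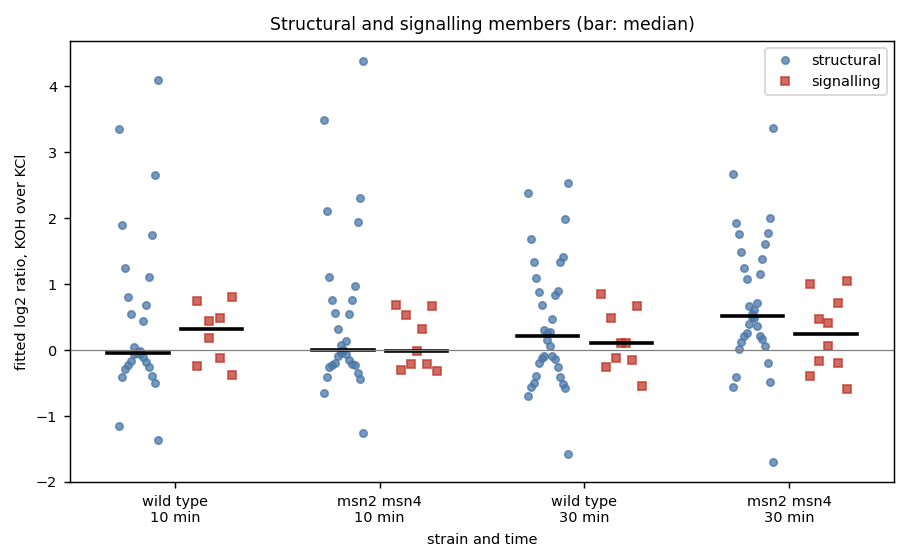
Fitted log2 ratio of KOH over KCl of each tested structural gene (blue circles) and signalling gene (red squares) in the 4 groups, with the median as a black bar. Structural genes spread from -1.70 to 4.39, signalling genes from -0.59 to 1.05, and the structural median is highest, at 0.52, in the mutant at 30 min.

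Of the genes for glucan and chitin synthesis, GSC2 and CHS1 rose at both times in both strains. GSC2 (YGR032W) encodes the inducible catalytic subunit of glucan synthase, and FKS1 (YLR342W) the subunit used in normal growth. GSC2 stood at 2.46, 1.38, 2.55 and 1.20 on the wild-type arrays at 10 min and at 2.08, 2.05, 2.67 and 1.66 on those of the mutant. At 30 min its wild-type arrays gave 2.61, 2.50, 2.86 and 2.17, and those of the mutant 3.71, 3.82, 3.26 and 2.66. All 16 values were above 1, and the 10 min arrays of wild type fell into 2 near 2.5 and 2 below 1.4. The fitted ratio was 1.90 ± 0.23 (3.73-fold, adjusted p = 7.05e-06) in wild type and 2.11 ± 0.23 (4.33-fold, adjusted p = 4.15e-06) in the mutant at 10 min. At 30 min it was 2.53 ± 0.23 (5.79-fold, adjusted p = 5.18e-07) and 3.36 ± 0.23 (10.3-fold, adjusted p = 1.15e-08).

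FKS1 did not follow its homologue. Its wild-type arrays stood at 0.05, 0.20, 0.04 and -0.53 at 10 min and at -0.96, -0.79, -0.37 and -0.15 at 30 min. In the mutant they stood at -0.31, -0.24, -0.59 and -0.51 at 10 min and at 0.59, 0.64, 0.41 and 0.34 at 30 min. The mutant arrays at 30 min thus lay above all 4 wild-type arrays of that time, with no overlap. For wild type the fit gave -0.06 ± 0.15 at 10 min (adjusted p = 0.780) and -0.57 ± 0.15 at 30 min (adjusted p = 0.00614). For the mutant it gave -0.41 ± 0.15 at 10 min (adjusted p = 0.0375) and 0.49 ± 0.15 at 30 min (adjusted p = 0.0137). None of these 3 calls held in the averaged fit, where the adjusted p lay between 0.127 and 0.264.

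CHS1 (YNL192W), chitin synthase I, which repairs the septum during cell separation, had its largest ratio at 10 min. Its wild-type arrays gave 2.61, 3.22, 2.56 and 2.26 at 10 min and 1.68, 0.99, 1.22 and 1.46 at 30 min. Its mutant arrays gave 2.28, 2.32, 2.19 and 2.46 at 10 min and 1.97, 1.57, 2.17 and 2.27 at 30 min. All 4 wild-type arrays at 10 min lay above all 4 at 30 min, whereas in the mutant the times overlapped. The fitted ratio was 2.66 ± 0.16 in wild type at 10 min (6.32-fold, adjusted p = 2.69e-09), 2.31 ± 0.16 in the mutant at 10 min (adjusted p = 1.96e-08), 1.34 ± 0.16 in wild type at 30 min (adjusted p = 7.12e-06) and 2.00 ± 0.16 in the mutant at 30 min (adjusted p = 5.74e-08).

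The other chitin synthases moved less. CHS3 (YBR023C), which makes most of the chitin of the lateral wall, rose in the mutant at 30 min (0.60 ± 0.14, adjusted p = 0.00486) and stood between -0.23 and 0.06 in the other groups. CHS2 (YBR038W), which builds the primary septum, fell in wild type at 30 min (-0.39 ± 0.14, adjusted p = 0.0382). GFA1 (YKL104C), the first enzyme on the way to the chitin precursor, stood at -0.05 ± 0.14 in both strains at 10 min. It rose at 30 min by 0.47 ± 0.14 in wild type (adjusted p = 0.0138) and by 0.67 ± 0.14 in the mutant (adjusted p = 0.00122). KRE6 (YPR159W), a membrane protein needed for the branched glucan of the wall, rose at 10 min by 0.80 ± 0.19 (n = 3, adjusted p = 0.00443) in wild type and by 0.97 ± 0.19 (n = 3, adjusted p = 0.00157) in the mutant. At 30 min its ratio was 0.26 ± 0.17 in wild type (adjusted p = 0.237) and 0.72 ± 0.17 in the mutant (adjusted p = 0.00401). Of all the calls among these genes, those of GSC2, CHS1 and of KRE6 at 10 min held in the averaged fit, and the others reached an adjusted p between 0.062 and 0.271 there.

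The enzymes that remodel the wall held both the proteases YPS1 and YPS3, which rose in every group, and the lowest ratios of the list, those of GAS3 and EXG1. In wild type 2 of 10 tested enzymes rose and 4 fell at 10 min (all features 21.1% and 20%), and 4 of 12 rose and 4 fell at 30 min (18.4% and 18.4%). In the mutant 4 of 11 rose and 3 fell at 10 min (17.9% and 17.1%), and 6 of 12 rose and 2 fell at 30 min (21.5% and 18.8%). With so few genes, several of these counts lie close to the shares over all features.

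YPS1 (YLR120C), a yapsin, that is an aspartyl protease held at the cell surface by a lipid anchor, had the largest ratio after PUN1 of all wall genes at 10 min. Its arrays stood at 3.12, 3.16, 3.93 and 3.17 in wild type and 3.58, 3.66, 3.66 and 3.08 in the mutant at 10 min. At 30 min they stood at 0.98, 1.29, 1.64 and 1.40 in wild type and 1.47, 1.65, 1.90 and 1.39 in the mutant. In both strains all arrays at 10 min lay above all arrays at 30 min. Fitted, YPS1 stood at 3.35 ± 0.13 (10.2-fold, adjusted p = 4.88e-11) in wild type and 3.49 ± 0.13 (11.3-fold, adjusted p = 2.34e-11) in the mutant at 10 min. The 30 min ratios were 1.33 ± 0.13 (2.51-fold, adjusted p = 1.46e-06) and 1.60 ± 0.13 (3.04-fold, adjusted p = 1.13e-07). YPS3 (YLR121C), a second yapsin, rose by 1.75 ± 0.16 (n = 3) and 1.94 ± 0.16 (n = 3) at 10 min and by 1.41 ± 0.13 and 1.24 ± 0.13 at 30 min, in wild type and mutant in that order.

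EXG1 (YLR300W), the major secreted exoglucanase, fell at 10 min. Its arrays stood at -1.31, -1.59, -1.55 and -1.04 in wild type and -1.28, -1.45, -1.32 and -0.98 in the mutant. At 30 min they stood at 0.16, -0.09, 0.04 and 0.50 in wild type and at 0.32, 0.21, 0.58 and 0.82 in the mutant. No array at 10 min reached the lowest at 30 min in either strain. The fitted ratio at 10 min was -1.37 ± 0.12 (2.59-fold lower, adjusted p = 2.35e-07) in wild type and -1.26 ± 0.12 (2.39-fold lower, adjusted p = 8.61e-07) in the mutant. Its 30 min ratio in wild type was 0.15 ± 0.12 (adjusted p = 0.330). That of the mutant was 0.48 ± 0.12 (adjusted p = 0.00457), and this call was lost in the averaged fit (adjusted p = 0.148).

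The 2 transglycosylases that join chitin to glucan, Crh1 and Utr2, went opposite ways in the mutant at 10 min. UTR2 (YEL040W) stood at -1.43, -1.28, -0.56 and -1.37 on the wild-type arrays and at -0.78, -0.70, -0.65 and -0.47 on those of the mutant. It fell by 1.16 ± 0.14 in wild type (adjusted p = 8.02e-06) and by 0.65 ± 0.14 in the mutant (adjusted p = 0.00206, or 0.0692 in the averaged fit). At 30 min it stood at -0.09 ± 0.14 in wild type and 0.17 ± 0.14 in the mutant, with no call. CRH1 (YGR189C) had values of 1.18 and 0.78 on 2 wild-type arrays at 10 min and was not tested there. Its mutant arrays at that time gave 0.49, 0.58, 0.96 and 0.99, with a fitted ratio of 0.76 ± 0.19 (adjusted p = 0.00653, or 0.0752 in the averaged fit). At 30 min CRH1 gave 1.62, 1.37, 1.42 and 2.36 in wild type and 1.62, 1.54, 2.40 and 2.14 in the mutant. It rose by 1.69 ± 0.19 (3.23-fold, adjusted p = 9.46e-06) and by 1.93 ± 0.19 (3.80-fold, adjusted p = 2.26e-06) there, and the arrays of the strains overlapped.

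Of the 3 listed genes of the glucan-elongating GAS family none rose, and each fell in at least 1 group. GAS3 (YMR215W) had values of -0.56 and -0.53 on 2 wild-type arrays and of -0.61 and -0.44 on 2 mutant arrays at 10 min, too few for a test. At 30 min its arrays stood at -1.79, -1.60, -1.69 and -1.23 in wild type and at -1.59, -1.18, -2.30 and -1.75 in the mutant, below every value at 10 min. Its fitted ratio there, -1.58 ± 0.17 (2.98-fold lower, adjusted p = 1.88e-05) and -1.70 ± 0.17 (3.26-fold lower, adjusted p = 9.01e-06), was the lowest of any gene of the list. GAS1 (YMR307W), the main enzyme of the family, fell in wild type at both times and in the mutant at 10 min, by 0.44 to 0.51. In the mutant at 30 min it stood at 0.01 ± 0.13 (adjusted p = 0.948). GAS5 (YOL030W) fell at 30 min in both strains, by 0.58 ± 0.11 in wild type and 0.41 ± 0.11 in the mutant. The GAS1 and GAS5 calls did not hold in the averaged fit, where the adjusted p ran from 0.0828 to 0.211.

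A pair of related glucanase-like wall proteins, Scw4 and Scw10, moved apart at 30 min. SCW10 (YMR305C) rose by 0.89 ± 0.16 in wild type (n = 3, adjusted p = 0.000864) and by 1.38 ± 0.16 in the mutant (n = 3, adjusted p = 2.97e-05), and stood at 0.05 ± 0.16 and 0.56 ± 0.16 at 10 min. The mutant value at 10 min passed (adjusted p = 0.0166, or 0.0858 in the averaged fit). SCW4 (YGR279C) fell in wild type at 30 min by 0.70 ± 0.13 (adjusted p = 0.000506) and stood at -0.20 ± 0.13 in the mutant (adjusted p = 0.221). DSE2 (YHR143W), made in daughter cells and tied to their release from the mother, fell in wild type at 10 min (-0.39 ± 0.12) and rose in the mutant at 30 min (0.36 ± 0.12). Neither DSE2 call held in the averaged fit (adjusted p = 0.218 and 0.246). BGL2 (YGR282C), an endoglucanase of the wall, passed in no group and ranged from -0.03 to 0.39.

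**Figure D3:**
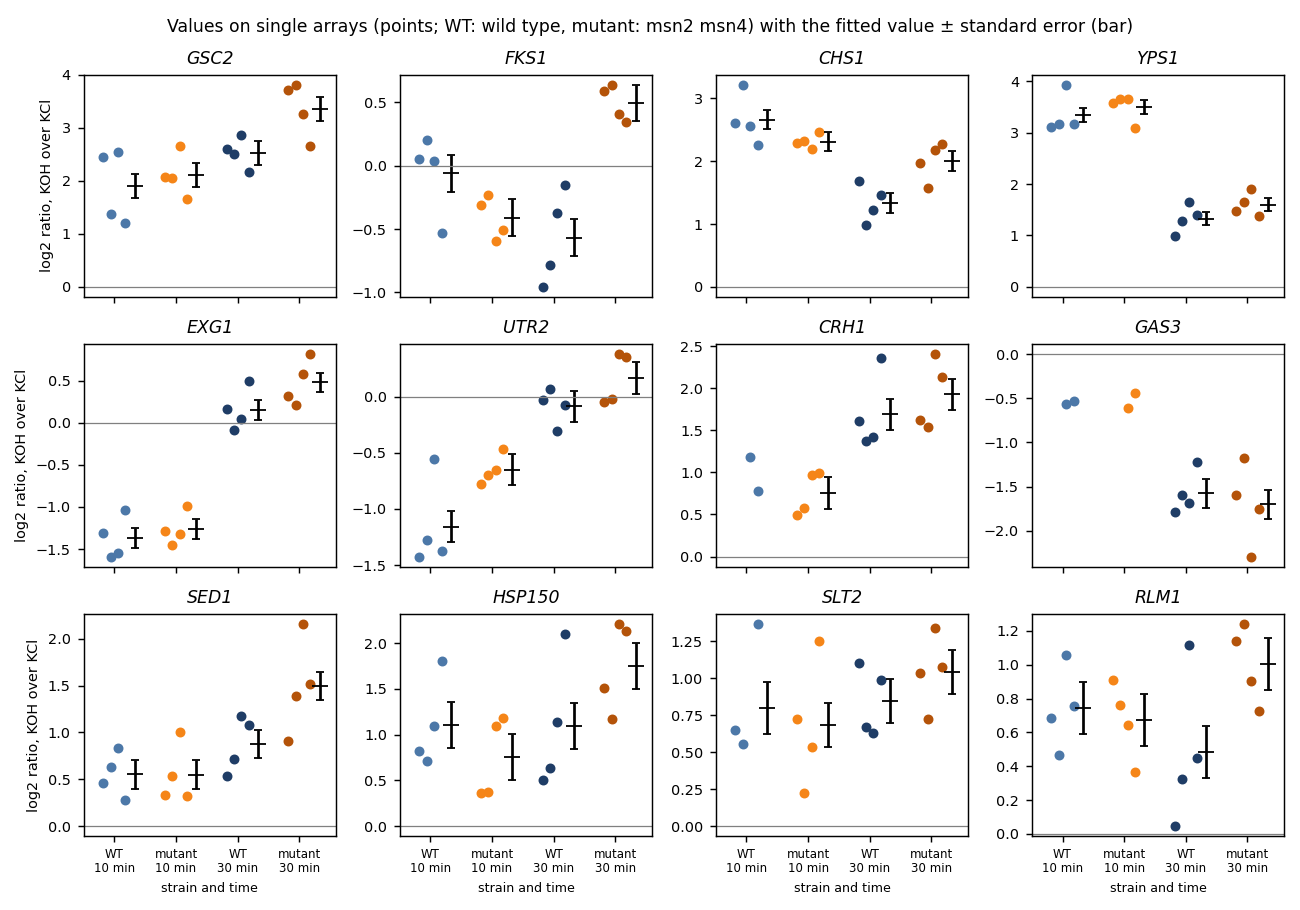
Log2 ratio of KOH over KCl on each array (points) for 12 genes in the 4 groups, with the fitted value ± standard error as a black bar where tested; the vertical scale differs between panels. YPS1 drops from above 3 to below 2 between the times, EXG1 moves from below -0.9 to around or above 0, and FKS1 in the mutant at 30 min stands apart above 0.3.

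Among the mannoproteins of the outer wall, HSP150 and SED1 rose in every group. Pir proteins bind glucan covalently through internal repeats, and others, such as Sed1, Cwp1 and Ccw12, are fixed through the remnant of a lipid anchor. Of the tested mannoprotein genes 3 of 10 rose in wild type (all features 21.1%) and 2 of 10 in the mutant (17.9%) at 10 min, with no falls (20% and 17.1%). At 30 min 4 of 11 rose and 2 fell in wild type (18.4% and 18.4%), and 5 of 11 rose and 2 fell in the mutant (21.5% and 18.8%). The rises in the mutant at 10 min and the falls at 30 min were near those shares.

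HSP150 (YJL159W), which encodes a secreted Pir protein, had the largest fitted ratio among them. Its arrays stood at 0.82, 0.71, 1.10 and 1.81 in wild type and 0.36, 0.37, 1.10 and 1.19 in the mutant at 10 min. At 30 min they stood at 0.51, 0.64, 1.14 and 2.10 in wild type and 1.51, 1.17, 2.21 and 2.13 in the mutant. All 16 values were positive and arrays 3 and 4 were the higher ones in every group. The fitted ratios were 1.11 ± 0.25 (adjusted p = 0.00218) and 0.75 ± 0.25 (adjusted p = 0.0296) at 10 min and 1.10 ± 0.25 (adjusted p = 0.00285) and 1.76 ± 0.25 (3.37-fold, adjusted p = 5.50e-05) at 30 min, wild type first. The mutant call at 10 min was lost in the averaged fit (adjusted p = 0.158).

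SED1 (YDR077W), an abundant anchored mannoprotein of resting cells, rose more at 30 than at 10 min in fitted value. Its arrays stood at 0.46, 0.63, 0.83 and 0.28 in wild type and 0.33, 0.54, 1.00 and 0.33 in the mutant at 10 min. At 30 min they stood at 0.53, 0.72, 1.18 and 1.08 in wild type and 0.91, 1.39, 2.16 and 1.51 in the mutant, and the strains overlapped. SED1 had a fitted ratio of 0.55 ± 0.15 in both strains at 10 min, 0.88 ± 0.15 in wild type at 30 min (adjusted p = 0.000328) and 1.49 ± 0.15 in the mutant at 30 min (2.82-fold, adjusted p = 1.40e-06). The averaged fit kept the calls at 30 min and not those at 10 min (adjusted p = 0.128 and 0.155).

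PIR3 and PST1 rose at 30 min in both strains. PIR3 (YKL163W), a further repeat protein, stood at 0.69 ± 0.15 in wild type (adjusted p = 0.00184) and 1.07 ± 0.15 in the mutant (adjusted p = 3.80e-05) at 30 min. At 10 min it rose in wild type (0.68 ± 0.15, adjusted p = 0.00156) and stood at 0.32 ± 0.15 in the mutant (adjusted p = 0.104). PST1 (YDR055W), an anchored protein known to be raised by wall damage, rose by 0.83 ± 0.17 in wild type (adjusted p = 0.00176) and by 1.15 ± 0.17 in the mutant (adjusted p = 0.000128) at 30 min. ECM33 (YBR078W), the close relative of PST1, fell in wild type at 30 min (-0.41 ± 0.14, adjusted p = 0.0272) and stood at 0.26 ± 0.14 in the mutant (adjusted p = 0.133). CIS3 (YJL158C), also a Pir protein, rose in the mutant at 30 min (0.55 ± 0.19, adjusted p = 0.0331).

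The mannoprotein genes CWP1 and CWP2 had ratios below 0 in all 4 groups and passed at 30 min alone. CWP1 (YKL096W) fell in the mutant at 30 min (-0.48 ± 0.14, adjusted p = 0.0132), and CWP2 (YKL096W-A) at 30 min in wild type (-0.52 ± 0.20, adjusted p = 0.0477) and in the mutant (-0.56 ± 0.20, adjusted p = 0.0326). At 10 min CWP1 stood at -0.29 ± 0.14 and -0.35 ± 0.14 and CWP2 at -0.41 ± 0.20 and -0.23 ± 0.20, wild type first, and no difference between the times passed for either gene (adjusted p from 0.511 to 0.933). The calls of ECM33, CIS3, CWP1 and CWP2 did not hold in the averaged fit, with adjusted p from 0.134 to 0.243. The abundant wall proteins CCW12 (YLR110C) and CCW14 (YLR390W-A) stood between -0.19 and 0.21 in all groups and passed in none. SPI1 (YER150W), a stress-induced wall protein, had a value on array 4 alone in 3 groups, with 2.38 for wild type and 0.77 for the mutant at 10 min and 0.43 for wild type at 30 min. It could be tested in the mutant at 30 min, where its arrays gave 0.89, 0.09 and -0.59 and it did not pass. TIR1 (YER011W), a wall protein of cold and low-oxygen growth, was tested in wild type at 30 min and did not pass there (-0.13 ± 0.43).

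Both membrane proteins rose in every group, also in the averaged fit. PUN1 (YLR414C), a plasma membrane protein that helps keep the wall intact, had the largest ratio of all wall genes at 10 min. Its arrays stood at 4.34, 3.88, 4.51 and 3.65 in wild type and 4.54, 4.24, 5.03 and 3.74 in the mutant at 10 min. At 30 min they stood at 3.07, 3.09, 1.63 and 1.74 in wild type and at 2.60, 2.49, 3.11 and 2.47 in the mutant. The lowest value at 10 min lay above the highest at 30 min in both strains, and the wild-type arrays at 30 min split into arrays 1 and 2 above 3 and arrays 3 and 4 below 1.8. PUN1 was fitted at 4.09 ± 0.25 (17.1-fold, adjusted p = 4.27e-09) in wild type and 4.39 ± 0.25 (20.9-fold, adjusted p = 2.65e-09) in the mutant at 10 min. Its 30 min ratios were 2.38 ± 0.25 (5.22-fold, adjusted p = 2.30e-06) and 2.67 ± 0.25 (6.36-fold, adjusted p = 5.02e-07).

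PRM5 (YIL117C), known as a target of Slt2 and Rlm1, went the other way in time. Its arrays gave 0.70, 1.39, 1.53 and 1.38 in wild type and, on 3 arrays, 1.40, 0.99 and 1.01 in the mutant at 10 min. At 30 min they gave 2.12, 2.00, 1.97 and 1.84 in wild type and 1.55, 1.60, 1.93 and 2.02 in the mutant. Every array at 30 min lay above every array at 10 min of the same strain. The fitted ratios were 1.25 ± 0.14 (adjusted p = 5.58e-06) and 1.11 ± 0.16 (adjusted p = 0.000107) at 10 min and 1.98 ± 0.14 (3.95-fold, adjusted p = 1.07e-07) and 1.77 ± 0.14 (3.42-fold, adjusted p = 1.14e-07) at 30 min, wild type first.

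Among the signalling genes the last kinase of the cascade and its transcription factor rose in every group, and MKK1 and MKK2, the kinases just above Slt2, passed in none. SLT2 (YHR030C) stood at 0.65, 0.56 and 1.37 on 3 wild-type arrays and at 0.73, 0.22, 0.54 and 1.25 on the mutant arrays at 10 min. The arrays at 30 min gave 1.10, 0.67, 0.63 and 0.99 in wild type and 1.04, 0.73, 1.34 and 1.07 in the mutant. All 15 values were positive and the 4 groups overlapped. The fitted ratio was 0.80 ± 0.17 (adjusted p = 0.00189) and 0.68 ± 0.15 (adjusted p = 0.00260) at 10 min and 0.85 ± 0.15 (adjusted p = 0.000447) and 1.05 ± 0.15 (2.06-fold, adjusted p = 7.33e-05) at 30 min, wild type first.

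RLM1 (YPL089C) stood at 0.69, 0.47, 1.06 and 0.76 in wild type and 0.91, 0.76, 0.65 and 0.37 in the mutant at 10 min. The arrays at 30 min gave 0.05, 0.32, 1.12 and 0.45 in wild type and 1.14, 1.24, 0.91 and 0.73 in the mutant. It was above 0 on all 16 arrays, with its lowest value on a wild-type array at 30 min. The fitted ratio was 0.74 ± 0.15 (adjusted p = 0.00107) and 0.67 ± 0.15 (adjusted p = 0.00312) at 10 min and 0.48 ± 0.15 (adjusted p = 0.0217) and 1.00 ± 0.15 (adjusted p = 0.000105) at 30 min, wild type first. In the averaged fit SLT2 lost its call in the mutant at 10 min (adjusted p = 0.0862), and RLM1 lost its calls in the mutant at 10 min (0.0815) and in wild type at 30 min (0.196).

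KDX1 (YKL161C), a relative of Slt2 that lacks normal kinase activity, rose at 30 min by 0.67 ± 0.12 in wild type (adjusted p = 0.000991) and 0.41 ± 0.12 in the mutant (adjusted p = 0.0185). At 10 min it had 2 values per strain, -0.58 and 0.08 in wild type and -0.75 and -0.58 in the mutant, and was not tested. PKC1 (YBL105C) rose in the mutant at 30 min, where 3 arrays gave 0.97, 0.63 and 0.65 (0.71 ± 0.21, adjusted p = 0.0160), and stood at -0.15 ± 0.18 in wild type. At 10 min PKC1 stood at 0.44 ± 0.18 in wild type (adjusted p = 0.0615) and at 0.53 ± 0.21 in the mutant (adjusted p = 0.0656). The redundant kinase genes MKK1 (YOR231W) and MKK2 (YPL140C) stood between -0.25 and 0.11 in all groups and passed in none. SMI1 (YGR229C), which coordinates wall synthesis with growth, passed in none either and ranged from -0.31 to 0.18.

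The sensors gave the fewest values. SLG1 (YOR008C) passed in wild type at 10 min at 0.48 ± 0.17 (adjusted p = 0.0494) on arrays of 0.15, 1.03 and -0.12, which do not share a sign. That call held in 2 of 13 alternative settings and in none of the 16 ways of averaging arrays. MID2 (YLR332W) rose in the mutant at 30 min (0.48 ± 0.16, adjusted p = 0.0258) on arrays of -0.23, 0.47, 1.06 and 0.61, and stood between -0.38 and -0.13 elsewhere. WSC2 (YNL283C) and WSC3 (YOL105C) were tested in 2 groups each and passed in none, with WSC3 at -0.54 ± 0.26 in wild type and -0.59 ± 0.26 in the mutant at 30 min. The calls of SLG1, MID2, PKC1 and KDX1 did not hold in the averaged fit, with adjusted p from 0.0573 to 0.408.

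The time course was compared within each strain as the ratio at 30 min minus that at 10 min. In wild type 4 of 35 tested wall genes were higher at 30 min and 3 lower, beside 5.98% and 12.1% of 2607 features. In the mutant 14 of 38 were higher and 3 lower, beside 5.18% and 9.65% of 2934 features. Structural genes made up 28 of the 35 tested in wild type and 30 of the 38 tested in the mutant. They gave all 7 wild-type calls and 16 of the 17 mutant calls. Calls shared by the strains in the same direction were those of YPS1 (-2.02 ± 0.19 in wild type and -1.89 ± 0.19 in the mutant), PUN1 (-1.71 ± 0.35 and -1.72 ± 0.35), EXG1 (1.52 ± 0.17 and 1.74 ± 0.17), UTR2 (1.07 ± 0.20 and 0.82 ± 0.20), SCW10 (0.84 ± 0.22 and 0.83 ± 0.22) and PRM5 (0.73 ± 0.20 and 0.67 ± 0.21). CHS1 was lower at 30 min in wild type (-1.32 ± 0.22, adjusted p = 0.000797) and stood at -0.32 ± 0.22 (adjusted p = 0.416) in the mutant. Calls made in the mutant and not in wild type were those of GSC2 (1.25 ± 0.32), FKS1 (0.91 ± 0.20), CHS3, GFA1, CRH1 (1.17 ± 0.26, not tested in wild type), YPS3 (-0.70 ± 0.21), DSE2, PIR3, PST1 (1.15 ± 0.27), SED1 (0.94 ± 0.22) and MID2. Whether these changes over time differ between the strains was not tested.

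The arrays of 13 of the 38 tested genes lay wholly higher at 30 than at 10 min in the mutant, or 34.2%, where 10.3% of all features tested did. In wild type this was so for 4 of 35, or 11.4%, beside 9.13%. The arrays of 4 genes lay wholly lower at 30 min in each strain, beside 13.4% of all features in either strain. The median difference of the tested genes was 0.35 in the mutant and 0.01 in wild type (0.005), beside -0.06 and -0.01 over all features. The averaged fit called 2 genes in each strain, and they were the same genes, EXG1 and YPS1. Of all features it called 62 in wild type and 54 in the mutant. The fit over single arrays had called 156 higher and 316 lower of all features in wild type, and 152 and 283 in the mutant. For PUN1 the adjusted p of the averaged fit was 0.0665 in wild type and 0.0657 in the mutant. Leaving out array 2, 3 or 4 of the mutant at 10 min, or array 3 or 4 of the mutant at 30 min, took the 17 mutant calls to 11. Without array 4 at 10 min, CHS3, YPS3, PST1 and PRM5 lacked values in a dye and were not tested. The same held for SCW10 without array 2 at 10 min. The other lost calls fell short of the threshold.

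The strains were compared as the ratio in the mutant minus that in wild type. At 10 min 0 of 36 tested wall genes differed at an adjusted p below 0.05 in limma, beside 0.0847% of 2361 features higher and 0.847% lower in the mutant. At an unadjusted p below 0.05 there were 2 of the 36 genes, beside 217 of the 2361 features. These 2 were UTR2 (0.51 ± 0.20, adjusted p = 0.436) and SCW10 (0.51 ± 0.22, adjusted p = 0.497). The averaged fit also called 0 wall genes, beside 3 of all features. The arrays of 1 gene, SCW10, lay wholly higher in the mutant, beside 5.38% of all features, and those of no gene wholly lower, beside 3.85%. The median difference was 0.02, beside 0.06 over all features. The ratios that were large at 10 min were large in both strains, with PUN1, YPS1, CHS1, GSC2 and YPS3 at the top of the list in each.

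At 30 min 1 of 40 tested wall genes was higher in the mutant and none lower, beside 0.452% and 0.151% of 3978 features. This gene was FKS1, with a difference of 1.06 ± 0.20 (adjusted p = 0.0463). The FKS1 call held in 8 of 19 other settings and in none of the 16 ways of averaging arrays, and in the averaged fit its adjusted p was 0.860. Those 16 ways called 0 of all features between strains at 30 min, so a call lost there says nothing particular about FKS1. The FKS1 call ended when array 1 or 2 of wild type or any of the 4 arrays of the mutant was left out. Leaving out array 3 of wild type gave 3 calls. At an unadjusted p below 0.05 there were 14 of the 40 genes, beside 767 of the 3978 features. The arrays of FKS1, CHS2, SCW4, SCW10, ECM33 and PKC1 lay wholly higher in the mutant, 6 of 40 or 15%, where 5.98% of all features did, and those of no wall gene lay wholly lower, beside 5.83%.

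The difference at 30 min was positive for 31 of 40 wall genes and had a median of 0.30, beside 44.8% positive and a median of -0.05 over all features. After FKS1 the largest differences were those of PKC1 (0.86 ± 0.28, adjusted p = 0.114), GSC2 (0.83 ± 0.32, adjusted p = 0.172), ECM33 (0.68 ± 0.19, adjusted p = 0.0809) and CHS1 (0.66 ± 0.22, adjusted p = 0.121), none of which passed. By class the median was 0.33 for 31 structural and 0.06 for 9 signalling genes. The median over the wall genes on single arrays, each over the genes with a value there, was -0.02, 0.05, 0.00 and 0.44 in wild type and 0.47, 0.39, 0.58 and 0.62 in the mutant at 30 min. The fourth wild-type array thus stood among those of the mutant. By the number in its title this array belongs to the smaller of 2 sets of arrays, as does array 4 of every group. These sets are read here as slide series, which the labels do not name. The part of the slide series in the value of this array was not tested.

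**Figure D4:**
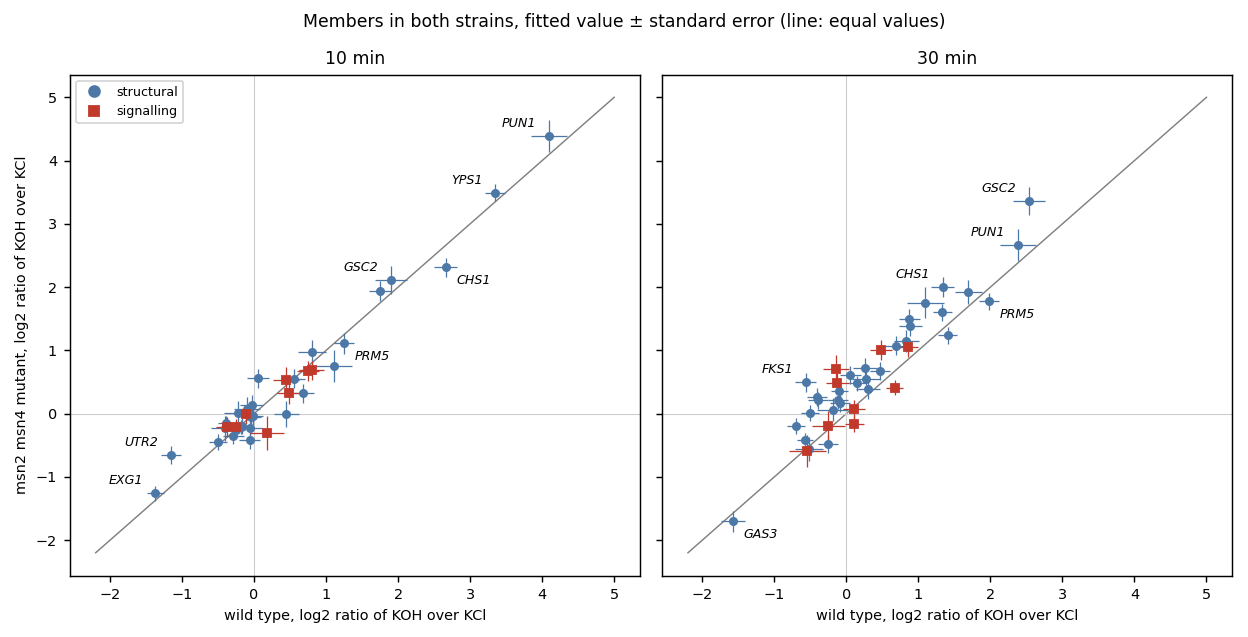
Fitted log2 ratio of KOH over KCl in the msn2 msn4 mutant (vertical) against wild type (horizontal) at 10 min (left) and 30 min (right), with standard errors; blue circles are structural and red squares signalling genes, and the diagonal marks equal ratios. At 10 min the genes lie along the diagonal, with a median difference of 0.02, and at 30 min 31 of 40 lie above it, with 1 call, FKS1.

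A further 48 genes of wall building and of the pathway stand outside the list. Of those tested, 5 of 24 rose and 2 fell in wild type (all features 21.1% and 20%) and 4 of 30 rose and 2 fell in the mutant (17.9% and 17.1%) at 10 min. At 30 min 9 of 34 rose and 7 fell in wild type (18.4% and 18.4%), and 15 of 34 rose and 5 fell in the mutant (21.5% and 18.8%). Their rises at 10 min were no more frequent than those over all features. NCW2, which encodes an anchored wall protein, had the largest ratio in every group, at 3.02 ± 0.21 in wild type and 3.39 ± 0.21 in the mutant at 10 min and at 1.90 ± 0.21 and 2.13 ± 0.21 at 30 min. RCR1, a membrane protein linked to chitin deposition, rose by 1.66 ± 0.17 and 2.30 ± 0.17 at 10 min, wild type first. BAG7, which encodes a GTPase-activating protein for Rho1, rose by 2.69 ± 0.21 in wild type at 10 min (n = 3) and had too few arrays for a test in the other groups. PTP2, a phosphatase acting on MAP kinases, rose by 1.17 ± 0.26 in wild type at 30 min (n = 3) and likewise could not be tested elsewhere. SUN4, of a family of wall proteins acting in septation, fell at 10 min in both strains (-0.93 ± 0.13 in wild type, -0.88 ± 0.13 in the mutant) and at 30 min in wild type (-0.39 ± 0.13, adjusted p = 0.0306), and stood at -0.05 ± 0.13 in the mutant. The strain difference at 30 min did not pass (adjusted p = 0.335). TIP1, an anchored mannoprotein, fell by 1.56 ± 0.18 in wild type and 1.74 ± 0.18 in the mutant at 30 min. SVS1, a wall protein, rose at 30 min by 0.74 ± 0.15 in wild type and 1.46 ± 0.15 in the mutant, with no call between the strains (adjusted p = 0.0933).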

How the data were processed

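RNA of wild type and of the msn2 msn4 mutant given KOH or KCl was measured on 16 arrays with 2 dyes. The authors deposited 1 log ratio per feature and array, read here as log2 of KOH over KCl. Base and direction are likely, not stated; within each group, arrays of opposite dye correlated positively. Not given in the sources used here: the scanner, its background correction, the normalization and the filter that left cells empty. Values were present for 33.6% to 88.2% of features per array, and the number of arrays limits the precision.

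Arrays were centred on their medians, which ran from -0.285 to 0.2615. limma 3.58.1 under R 4.3.3 (lmFit, eBayes) was fitted to all features and all 16 arrays, with 1 coefficient per group and a dye term. Tests were two-sided, with Benjamini-Hochberg adjustment over all features tested. The scripts were tested on simulated data. All 48 genes were matched by systematic name to the reference table of gene symbols.

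All 48 genes could be named, with the value on each array that held one for the largest changes in each role. From the other pathway genes the 3 largest passing changes of each KOH comparison were named. The members and lists were chosen with earlier results of these data known. Alternatives covered the dye term, the arrays in the fit, normalization, missing values, slide series, the unit of replication, a fold minimum, moderation, and leaving out each array. The averaged fit and a centring on features present on all 16 arrays were added after the data were seen. Promoter sequences were not analysed here.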

Additional observations from a re-analysis of the deposited data

Results flagged for a closer look

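In 8 of 135 sets of 4 arrays, each holding 1 wall gene in 1 group, the highest or lowest array stood apart from the other 3 by Dixon's criterion; chance sets apart about 1 in 20 such sets. In wild type at 10 min, UTR2 stood at -0.56 on array 3, against -1.43 to -1.28 on the others. YPS1 stood at 3.93 on the same array, against 3.12 to 3.17. CCW14 stood at -0.43 on array 4, against 0.08 to 0.17. On array 2, PKC1 stood at -0.38, against 0.63 to 0.83, and MKK2 at -0.42, against -0.04 to 0.03. In the mutant at 10 min, YPS1 stood at 3.08 on array 4, against 3.58 to 3.66. In wild type at 30 min, PIR3 stood at 0.29 on array 1, against 0.78 to 0.85, and CIS3 at 1.24 on array 4, against -0.06 to -0.02.

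A further 25 values are differences that passed in the fit. Between strains this was FKS1 at 30 min, with 1.06 in the mutant minus wild type. Between times, as 30 min minus 10 min, the wild-type differences were -1.32 for CHS1, 1.07 for UTR2, 1.52 for EXG1, 0.84 for SCW10, -2.02 for YPS1, 0.73 for PRM5 and -1.71 for PUN1. In the mutant, differences for glucan and chitin synthesis were 1.25 for GSC2, 0.91 for FKS1, 0.84 for CHS3 and 0.72 for GFA1. For remodelling enzymes they were 1.17 for CRH1, 0.82 for UTR2, 1.74 for EXG1, 0.83 for SCW10, -1.89 for YPS1, -0.70 for YPS3 and 0.52 for DSE2. For mannoproteins they were 0.75 for PIR3, 1.15 for PST1 and 0.94 for SED1. PRM5 differed by 0.67 (0.665), PUN1 by -1.72 and the sensor gene MID2 by 0.69.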

How the results depend on the processing

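No paired analysis was possible because the labels carry no replicate numbers that tie arrays of different groups to each other. The averaged fits join arrays within a group, and the slide series was run as a block. No called value changed its sign under any alternative run. Over the 111 calls of single genes, 1703 values under alternatives kept their side of the threshold and 351 fell short of it. Which arrays share an extract is not known, so p-values from 4 arrays are too small. No wall gene had a dye term past the threshold (lowest adjusted p 0.166, SLG1), and the slide series as a block moved no count by over 1.5 times. Causes of the changes below were not tested, apart from the fewer arrays or replicates of some settings.

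With the most alike arrays averaged, the calls among the wall genes numbered 8 for the mutant at 10 min, 15 for each strain at 30 min, 0 between strains at 30 min, and 2 between times in each strain. Over all features that fit called 475 for the mutant at 10 min, and 682 in wild type and 661 in the mutant at 30 min. It called 0 between strains at 30 min, and 62 and 54 between times in wild type and mutant. For the other settings counts over all features are not given here. Over all 16 ways of averaging, the lowest counts were 8, 14, 15, 0, 2 and 2 in that order. The highest between strains at 30 min was 0, and it was 0 over all features too. With a 2-fold minimum they were 9 in wild type and 7 in the mutant at 10 min, 9 and 15 at 30 min, and 6 between times in the mutant. On the larger slide series alone they were 10 in the mutant at 10 min, 0 between strains at 30 min and 9 between times in the mutant. The compared groups alone gave 16 in the mutant at 30 min and 0 between strains at that time. The strain count at 30 min was also 0 under scale normalization, with features on at least 2 arrays, and with centring on features present on all 16 arrays. The median in wild type at 10 min, -0.02, became 0.09 (0.086) on the larger slide series and 0.08 (0.082) with the last centring. Leaving out 1 array at a time gave medians from -0.04 (-0.037) to 0.09 (0.087) there. It gave 10 to 16 calls in the mutant at 10 min, 0 to 3 between strains at 30 min and 11 to 15 between times in the mutant. Some genes lost their test, rather than falling short of the threshold, when an array was left out.

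For the other pathway genes, averaging the most alike arrays gave 4 and 3 calls in wild type and mutant at 10 min, 4 and 5 at 30 min, 0 between strains at 30 min, and 0 and 1 between times in wild type and mutant. The lowest over the 16 ways were the same numbers, 4, 3, 4, 5, 0, 0 and 1, and the highest between strains was 0. A 2-fold minimum gave 3, 2, 3 and 3 in the 4 groups and 1 between times in wild type. The larger slide series gave 3 in the mutant at 10 min, 10 and 11 at 30 min in wild type and mutant, 0 between strains and 1 between times in wild type. The compared groups alone gave 9 in the mutant at 30 min and 0 between strains, where EGT2 (1.05) was the 1 call. Scale normalization gave 10 in the mutant at 10 min, quantile normalization gave 1 and features on at least 2 arrays gave 5 between times in wild type, and values as deposited gave 2 between strains at 30 min. Leaving out 1 array gave 8 to 14 in wild type at 30 min, with 8 without array 1 and 10 without array 2. It gave 12 to 17 in the mutant at 30 min, 0 to 3 between strains and 1 to 4 between times in wild type.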
